A study of Homo sapiens with 6 samples.

Results

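OGT and GFPT2 were the 2 genes examined, of 5681 genes in the table analysed here, and both were found by their gene symbols. They sit at opposite ends of the hexosamine pathway. OGT mRNA was 20.02-fold lower in HT-29 cells carrying the hairpin against OGT (mean normalized count 10962 ± 1155 in Scramble and 548 ± 69.1 in shOGT, SD, n = 3 each), and GFPT2 mRNA was 8.17-fold higher (8.41 ± 2.22 and 68.7 ± 6.84). HT-29 is an established human colorectal adenocarcinoma line. RNA was sequenced from 3 libraries infected with a Scramble hairpin (libraries 1 to 3) and 3 infected with a short hairpin RNA against OGT (shOGT, libraries 4 to 6). The labels name no drug, time point or other treatment, and no library of uninfected cells was analysed here. The study lists a pair of hairpins against OGT and does not name the one used for sequencing, so the shOGT group stands for 1 cell line and an unnamed hairpin. The methods state in general that measurements came from separate samples, but no source says whether the 3 libraries of a group were separate cultures, so the p-values measure only the spread between these libraries, which may be technical.

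The hexosamine pathway branches from glycolysis at fructose-6-phosphate. GFPT1 and GFPT2 (also called GFAT1 and GFAT2) join this sugar phosphate with the amide nitrogen of glutamine, which is the rate-limiting step, and later enzymes turn the product into the nucleotide sugar UDP-GlcNAc. OGT transfers GlcNAc from UDP-GlcNAc to serine and threonine residues of nuclear and cytoplasmic proteins, and OGA removes it. The same nucleotide sugar feeds N-glycans, hyaluronan and sialic acid, and in colorectal cancer cells the pathway links glucose and glutamine supply to protein O-GlcNAcylation.

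The table listed only genes that the authors' own test placed past a 2-fold change and an adjusted p of 0.05, and its values are normalized counts, that is, whole reads divided by 1 size factor per library. Here a gene was called where its absolute log2 fold change was over 1 and its Benjamini-Hochberg adjusted p under 0.05 in a limma fit over 5671 genes. Calls reached 99.4% of them in either direction, with 52.2% called higher and 47.2% called lower in shOGT, and the ranges of the groups did not overlap for 99.5%. A call of OGT, GFPT2 or a related gene therefore says no more than that the gene is in the table, and the results below rest on levels and sizes. The table's genes drew 4145921 to 4504303 reads per library in Scramble and 3302558 to 3471647 in shOGT, which is not the full depth of the libraries. Of 12 markers of colon epithelium, 5 were analysed, and their summed normalized count was 9062 to 10932 in Scramble and 18490 to 20474 in shOGT. KRT20, KRT19 and CDH17 were higher in shOGT, and VIL1 and LGALS4 were lower, VIL1 by less than 2-fold after rescaling of the libraries (log2 fold change −0.40). Of 6 stromal markers only PDGFRB was analysed (0 to 1.80 in Scramble and 10.5 to 17.1 in shOGT), of 3 endothelial markers only PECAM1 (42.3 to 51.4 and 129 to 200), and of 5 blood markers none. The part of these shifts in the changes of OGT and GFPT2 was not tested.

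OGT lies at chrX:71533083-71575897 on the forward strand of GRCh38 and GFPT2 at chr5:180300690-180353387 on the reverse strand. Both are protein-coding genes. The longest coding transcript of OGT has 22 exons and encodes 1046 residues, and that of GFPT2 has 19 exons and encodes 682 residues, in GENCODE version 29. None of their exon bases (0%) lay under another gene's exons in that annotation, and no 75-base stretch of either transcript occurred unchanged in another gene. These transcripts hold 5461 bases for OGT and 3093 for GFPT2, of 9812 and 4780 exon bases. The remaining exon bases, and copies with mismatches, were not searched. The annotation gives 11 transcripts for OGT and 8 for GFPT2, and a count per gene does not separate them.

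The 250 bases before each RefSeq start site (GRCh38.p14, read along the gene) are shown as the sequences next to the start of each gene. Whether they bear on the change of either mRNA was not tested. The window is chrX:71532854-71533103 for OGT and chr5:180353337-180353586 for GFPT2. Capitals mark matches, on either strand, to 5 sets of letters that were searched: the E-box CACGTG, to which c-Myc with MAX is known to bind, the amino acid response element TGATGCAA that ATF4 is known to bind, the core promoter element TATAA, the box CCAAT bound by NF-Y, and the GC box GGGCGG of the SP1 family.
OGT: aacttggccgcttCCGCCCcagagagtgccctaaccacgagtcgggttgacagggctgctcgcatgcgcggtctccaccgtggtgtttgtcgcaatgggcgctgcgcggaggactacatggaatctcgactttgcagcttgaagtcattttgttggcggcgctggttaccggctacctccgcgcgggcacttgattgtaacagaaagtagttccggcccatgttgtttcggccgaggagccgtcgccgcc
GFPT2: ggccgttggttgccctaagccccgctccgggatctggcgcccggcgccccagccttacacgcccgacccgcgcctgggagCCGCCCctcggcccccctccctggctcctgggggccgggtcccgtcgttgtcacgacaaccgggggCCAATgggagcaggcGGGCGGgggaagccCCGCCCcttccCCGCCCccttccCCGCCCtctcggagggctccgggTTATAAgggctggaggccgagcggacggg

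The OGT window held 1 GC box, beginning 5′ at position −237 from the start site, and no match to the other 4. The GFPT2 window held 5 GC boxes between −170 and −52, a CCAAT at −104, and a TTATAA whose TATAA matches on the 2 strands overlap at −29 and −28. Neither promoter held CACGTG or TGATGCAA, which says only that these letters are not in the window. Over 35116 RefSeq promoters of 300 bases (250 before and 50 after the start), GGGCGG occurred in 45%, CCAAT in 34.6%, TATAA in 20.4%, CACGTG in 7.26% and TGATGCAA in 0.866%. The GFPT2 promoter of that length was 77% G and C, above 93.6% of promoters, and that of OGT was 57.7%, close to the median of 58.7%.

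OGT was measured first, as the gene the hairpin targets. Its normalized counts were 9628, 11638 and 11620 in Scramble libraries 1, 2 and 3 and 484, 621 and 537 in shOGT libraries 4, 5 and 6. Every shOGT library was far below every Scramble library, and within Scramble, library 1 stood below the other two. The log2 fold change, shOGT relative to Scramble on the log2(normalized count + 1) scale, was −4.32 (SE 0.11, 95% confidence interval −4.55 to −4.09, limma adjusted p = 1.59e-12). Over the 9 pairs of a shOGT and a Scramble library, 4.16% to 6.45% of the OGT level was retained, and 4.99% from the group means. In these bulk samples, fewer cells with OGT mRNA and less OGT mRNA per cell cannot be told apart.

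The reads behind these values were many. OGT had 10856, 12915 and 12627 reads in Scramble and 460, 580 and 472 in shOGT, or 36398 in all (exact Poisson 95% interval 36025 to 36774) against 1512 (1437 to 1590). These intervals cover counting error only. Set against the reads on the genes of the table, OGT took 0.241%, 0.298% and 0.305% in Scramble and 0.0135%, 0.0167% and 0.0143% in shOGT. A two-sided exact permutation p for OGT over 3 against 3 libraries was 0.1, the smallest this design allows.

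The spread between libraries exceeded what counting alone gives. The coefficient of variation of OGT was 10.5% in Scramble, where the median over 57 genes within 1.5 times its level was 5.69%, and 12.6% in shOGT, where the median over 583 such genes was 9.61%. Leaving out any 1 library kept the OGT log2 fold change between −4.42 and −4.24.

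Among genes of its abundance OGT had the largest fall. It ranked 34 of 5681 genes by mean normalized count in Scramble and 1166 in shOGT, without division by length. Of the 2691 genes with a negative log2 fold change it ranked 11, and of the 29 such genes at or above its Scramble level, OGT included, none fell further. Of 955 genes tested with a Scramble mean of at least 1000, KIF21B, a kinesin motor, was alone in falling further than OGT (log2 fold change −4.64), and TOMM40, a mitochondrial import pore (−4.11), came next. The plot of level against change sets both genes among all genes tested.

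**Figure D1:**
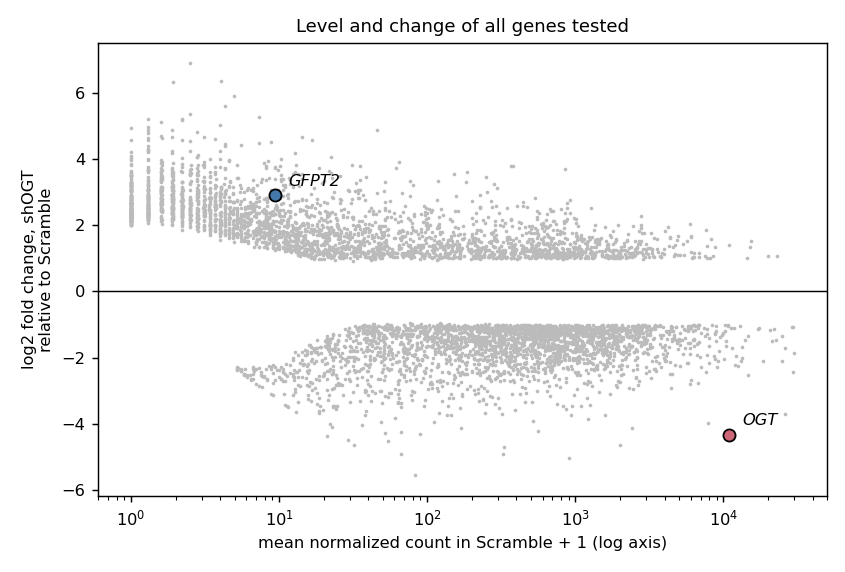
Log2 fold change in shOGT relative to Scramble (limma, y axis) against the mean normalized count + 1 in Scramble (x axis, log scale), 1 point per gene for 5671 genes tested. OGT sits at a log2 fold change of −4.32 among the most abundant genes, and GFPT2 at 2.91 among the less abundant ones; the empty band around 0 is where the table lists no genes.

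GFPT2 was scarce in Scramble. Its normalized counts were 7.98, 10.8 and 6.44 in libraries 1, 2 and 3, and 75.8, 62.1 and 68.3 in shOGT libraries 4, 5 and 6. The groups did not overlap, and the lowest shOGT library was several times the highest Scramble library. The log2 fold change was 2.91 (SE 0.33, 95% confidence interval 2.21 to 3.61, limma adjusted p = 1.00e-06), which is 7.52-fold on the log2(normalized count + 1) scale. Across the 9 library pairs the ratio of shOGT to Scramble ran from 5.74 to 11.8.

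Few reads stood behind the Scramble level of GFPT2. The libraries held 9, 12 and 7 reads in Scramble and 72, 58 and 60 in shOGT, 28 in all (exact Poisson 95% interval 18.6 to 40.5) against 190 (164 to 219). The 2 counting intervals were well apart, while the size of the rise was known less closely than the fall of OGT, with a standard error of 0.33 against 0.11 on the log2 scale. With a pseudocount of 0.1 the log2 fold change was 3.04, and on recovered reads it was 3.01 by edgeR and 3.03 by DESeq2. Leaving out 1 library gave 2.75 to 3.09, and the exact two-sided permutation test again gave p = 0.1, its smallest value.

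The libraries of GFPT2 varied no more than those of like genes. Its coefficient of variation was 26.4% in Scramble, against a median of 35.8% over 439 genes within 1.5 times its level, and 9.95% in shOGT, against 17.4% over 782 genes. It moved from rank 4385 of 5681 in Scramble to 3061 in shOGT. By size it was 399 of 2980 genes with a positive log2 fold change, and of the 1395 such genes at or above its shOGT level 100 rose further.

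**Figure D2:**
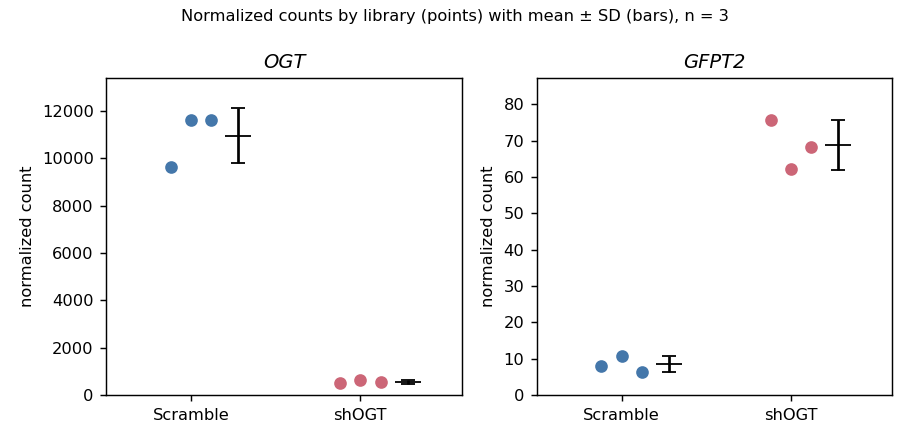
Normalized counts of OGT (left) and GFPT2 (right) in the 3 Scramble and 3 shOGT libraries, with separate y axes from 0. Points are libraries and bars are mean ± SD; OGT drops from 10962 ± 1155 to 548 ± 69.1 and GFPT2 goes from 8.41 ± 2.22 to 68.7 ± 6.84, with no overlap in either gene.

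The other genes of the pathway were read from a list of 20 hexosamine and O-GlcNAc genes, 5 of which were analysed here. Of these, 2 were called higher in shOGT, GFPT2 among them, and 2 lower (OGT and GPI), 4 of 5 against a background of 99.4%. The median log2 fold change of the 5 was −0.999, the value of HEXDC alone, and the 5 ran from −4.32 (OGT) to 2.91 (GFPT2). Over all genes tested the median was 1.05, at the edge of the empty band around 0, so it does not stand for a typical change. The remaining 15, among them GFPT1, the other enzyme of the first step, and OGA, the enzyme that removes O-GlcNAc, were not analysed here. So the balance of OGT against OGA, or of GFPT2 against GFPT1, could not be read.

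GPI, the glycolytic isomerase that makes fructose-6-phosphate, the substrate of GFPT2, had normalized counts of 7301, 5801 and 6787 in Scramble and 1674, 1757 and 1825 in shOGT. All shOGT libraries were below all Scramble libraries, with a log2 fold change of −1.91 (SE 0.09, limma adjusted p = 3.14e-10). A share of 10.1% of the 75-base stretches of its transcript also occurs in other genes.

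HEXDC (HEXD), a hexosaminidase, had 359, 274 and 269 in Scramble and 147, 167 and 133 in shOGT. Its groups did not overlap, yet its log2 fold change of −0.999 (SE 0.16, limma adjusted p = 3.12e-05) did not exceed 1 in size, so it was not called. It was called with a pseudocount of 0.1 (−1.003), which made 5 of 5 called, and by edgeR (−1.01) and DESeq2 (−1.01). Without Scramble library 2, Scramble library 3 or shOGT library 5 it was also called (−1.06, −1.07 and −1.08). With the libraries rescaled by median-of-ratios factors it was −0.285 (limma adjusted p = 0.0962).

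Per kilobase of exon, which allows levels of different genes to be set side by side, the order of OGT, GPI, HEXDC and GFPT2 differed between the groups. In Scramble, OGT stood first at 1117 ± 118 normalized counts per kilobase (SD, n = 3), followed by GPI at 621 ± 71.4, HEXDC at 66.2 ± 11.2 and GFPT2 at 1.76 ± 0.46. In shOGT, GPI stood first at 164 ± 7.08, followed by OGT at 55.8 ± 7.04, HEXDC at 32.9 ± 3.75 and GFPT2 at 14.4 ± 1.43. The library ranges of neighbours in either order did not overlap. GFPT2 thus remained the least abundant of the 4 in shOGT, and OGT was still above it.

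**Figure D3:**
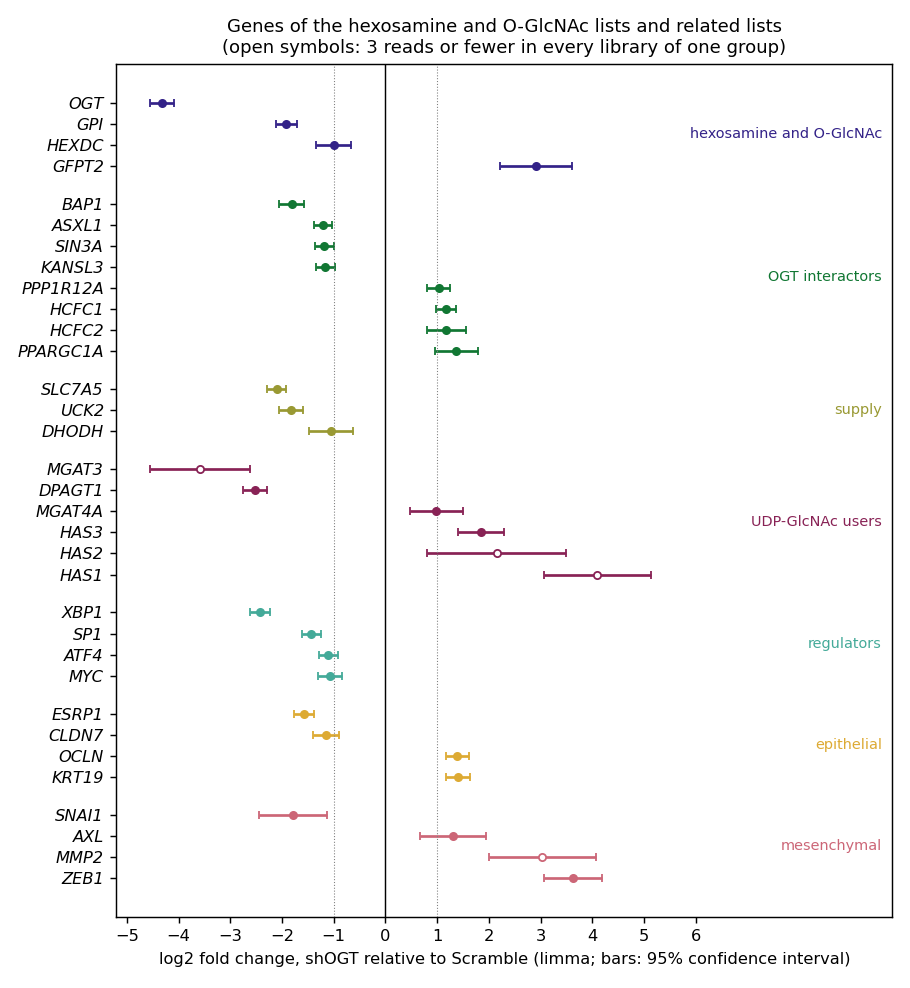
Log2 fold change in shOGT relative to Scramble (x axis, limma, bars 95% confidence interval) for genes analysed in each list. Dotted lines mark −1 and 1, and open symbols mark genes with 3 reads or fewer in every library of a group; OGT at −4.32 lies farthest to the left, and GFPT2 at 2.91 is the highest of the hexosamine genes.

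Proteins known to bind OGT were read from a list of 20, of which 8 were analysed. Of these, 4 were called higher and 4 lower, against 52.2% and 47.2% of all genes tested. Their median log2 fold change of −0.07 lies in the empty band around 0, where none of the 8 stood. HCFC1, the host cell factor that OGT both glycosylates and cleaves, rose from 2824, 2483 and 2522 to 6343, 5866 and 5407 (log2 fold change 1.17, SE 0.09, limma adjusted p = 1.94e-08). Its relative HCFC2 rose by 1.18 (137, 169 and 193 against 288, 426 and 426), and PPARGC1A, a coactivator that HCFC1 links to OGT, by 1.37. BAP1, the deubiquitinase of HCFC1 and OGT, fell by 1.82 on the log2 scale (988 ± 44.9 to 281 ± 30.7), and the log2 fold changes of its partner ASXL1 and of the corepressor SIN3A were −1.21 and −1.19. KANSL3, a subunit of the NSL acetyltransferase complex (−1.16), and PPP1R12A, a myosin phosphatase subunit (1.03), complete the 8, and they fell outside the rule for named genes. PPP1R12A was not called without Scramble library 1, shOGT library 5 or shOGT library 6 (0.95, 0.97 and 0.99).

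Genes that handle the substrates of GFPT2 and of UDP-GlcNAc synthesis, named supply genes here, were read from a list of 29. Of these, 3 were analysed and all 3 were called lower (median −1.83), against 47.2% called lower over all genes tested. SLC7A5, the amino acid exchanger that gives out glutamine for large neutral amino acids, went from 18475 ± 953 to 4294 ± 198 (log2 fold change −2.10, SE 0.08, limma adjusted p = 4.96e-11). It was the only 1 of 9 glutamine genes analysed, and none of the 9 glucose transporters and hexokinases was. In uridine nucleotide synthesis 2 of 11 were analysed. UCK2, a uridine kinase, had 1406 ± 52.2 in Scramble and 398 ± 56.0 in shOGT, and 13.5% of its 75-base stretches occur in other genes. DHODH, an enzyme of the de novo route, had 241 ± 39.5 and 117 ± 31.2, and its log2 fold change of −1.06 was not called without Scramble library 1 (−0.96) or without shOGT library 6 (−0.90). After the same rescaling DHODH was at −0.346 (limma adjusted p = 0.0842), which left 2 of the 3 supply genes called. Over all genes tested, 4069 of 5671 were called after it, 1089 of them lower.

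Enzymes that spend UDP-GlcNAc outside O-GlcNAc cycling were read from a list of 22, of which 6 were analysed. Of these, 3 were called higher and 2 lower (median 1.41), against 52.2% and 47.2% of all genes tested. The 3 called higher were the hyaluronan synthases, which polymerise UDP-GlcNAc with UDP-glucuronic acid. HAS3 had 71.8, 50.5 and 76.4 in Scramble and 248, 192 and 280 in shOGT (log2 fold change 1.85, SE 0.21, limma adjusted p = 1.03e-06). HAS1 was at 0 in all Scramble libraries and at 30.5, 10.7 and 12.5 in shOGT, at least 6.49-fold higher against a floor of 3 reads per library, and at least 4.21-fold without shOGT library 4, the highest. HAS2 was also at 0 in Scramble and at 1.05, 2.14 and 12.5 in shOGT, at least 1.898-fold higher, but only shOGT library 6 exceeded the floor, and no bound above the floor remained without it.

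The 2 called lower make N-glycans. DPAGT1, which starts the N-glycan precursor with GlcNAc-phosphate, had 1437 ± 40.8 in Scramble and 251 ± 31.9 in shOGT (log2 fold change −2.52). C2CD2L overlaps 21.3% of its exon bases, and 29.8% of its 75-base stretches occur in other genes. MGAT3, which adds the bisecting GlcNAc, had 18.63, 18.02 and 19.32 in Scramble and 1.05, 0 and 1.14 in shOGT, that is, 62 reads against 2 (ratio of shOGT to Scramble 0.0388, 95% counting interval 0.00460 to 0.146). MGAT4A, a branching enzyme, was not called, with 43.6 ± 3.19 and 88.0 ± 18.3 and a log2 fold change of 0.98. It was called without Scramble library 3, shOGT library 4 or shOGT library 6 (1.03, 1.10 and 1.01) and by edgeR and DESeq2 (both 1.01). It was also called after rescaling (1.68), which took the list from 5 to 6 called, where 4069 of 5671 genes tested were.

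Regulators known to act on hexosamine genes were read from a list of 9, of which 4 were analysed. All 4 were called lower (median −1.27), where 99.4% of all genes tested were called and 47.2% were called lower. XBP1, whose spliced form is known to induce GFPT1 and other hexosamine enzymes, had 7388, 7736 and 7611 in Scramble and 1340, 1333 and 1574 in shOGT (log2 fold change −2.42, SE 0.09, limma adjusted p = 2.40e-11). SP1, itself an O-GlcNAc protein, had 3366 ± 151 and 1243 ± 71.9 (−1.44). ATF4, the regulator of the amino acid response, had 4425 ± 254 and 2058 ± 116 (−1.10), and 10.1% of its 75-base stretches occur in other genes. MYC had 4796 ± 313 and 2295 ± 350 (−1.07), and −0.97 without shOGT library 5, below the threshold. By quantitative PCR, the paper reports no significant decrease of c-Myc mRNA after OGT depletion in HT-29 cells. Whether these 4 mRNAs bear on the level of GFPT2 was not tested.

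With the libraries rescaled by median-of-ratios factors computed within the table, the median over all genes tested shifted by 0.71 on the log2 scale, from 1.05 to 1.76. On that scale 4069 of 5671 genes tested were called, 2980 higher and 1089 lower, against 2959 and 2677 before it. The log2 fold change of OGT was −3.61 and that of GFPT2 3.58. XBP1 alone of the 4 regulators stayed called (−1.71), with SP1 at −0.72, ATF4 at −0.39 and MYC at −0.36. Of the OGT interactors the 4 higher genes and BAP1 (−1.10) were called on that scale, while ASXL1 (−0.49), SIN3A (−0.47) and KANSL3 (−0.45) were not. The factors came only from genes past the authors' thresholds, without genes that stayed level, so the rescaling cannot decide which scale is right.

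GFPT2 mRNA is known to be more abundant in mesenchymal than in epithelial cancer cells, and so genes of both states were read. Of 13 epithelial genes 4 were analysed, with 2 called higher and 2 lower, against 52.2% and 47.2% of all genes tested. Their median log2 fold change of 0.12 falls between CLDN7 (−1.14) and OCLN (1.38), and none of the 4 stood near it. OCLN, a tight junction protein, had 314 ± 7.37 and 822 ± 62.2 (log2 fold change 1.38), and KRT19, a keratin, rose by 1.39. ESRP1, an epithelial splicing regulator, had 5739 ± 237 and 1936 ± 170 (−1.57), and CLDN7, a claudin, −1.14, and neither was called after rescaling (−0.85 and −0.43).

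Of 11 mesenchymal genes 4 were analysed, with 3 called higher and 1 lower (median 2.17), against 52.2% and 47.2% of all genes tested. ZEB1, a repressor of epithelial genes, had 19.5, 28.8 and 13.8 in Scramble and 255, 277 and 239 in shOGT (log2 fold change 3.63, SE 0.26, limma adjusted p = 9.85e-09). AXL, a receptor kinase, had 22.2 ± 5.19 and 55.6 ± 8.26 (log2 fold change 1.299). MMP2, a matrix protease, had 3 reads in Scramble and 37 in shOGT (ratio 14.8, 95% counting interval 4.70 to 75.2). SNAI1, a further repressor of this kind, went the other way, with 112 ± 6.27 and 33.8 ± 13.8 (−1.79). Within each of the 2 sets, the 4 genes analysed did not all move in the same direction, and the other genes were not analysed.

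The genes with the profile most like each of the 2 were found by the root mean square difference over the 6 libraries between log2(normalized count + 1) values centred on each gene's own mean, among genes with a mean of at least 100. With 2 groups this measure reads mainly the size of the change. Of 2907 genes, those most like OGT were TXNIP (0.227 log2 units), KIF21B (0.270), ECH1 (0.333), CA9 (0.344) and FGFR3 (0.367). TXNIP, an arrestin that limits glucose uptake, had 7753, 7956 and 7790 in Scramble and 422, 508 and 576 in shOGT, a log2 fold change of −3.97. ARHGEF39 overlaps 38.5% of the exon bases of CA9, a carbonic anhydrase, and the other 4 genes had log2 fold changes of −4.64 to −3.72.

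Of 2908 genes, 4 of the 5 most like GFPT2 were SYT13, a synaptotagmin (0.166), the antisense RNA gene AP002478.1 (0.196), SLC16A4, of the monocarboxylate transporter family (0.210), and NNAT, neuronatin (0.210). These 4 were more abundant than GFPT2. Exons of DLGAP1, on the opposite strand, overlap 2.06% of the exon bases of AP002478.1. As counting by strand is not stated, opposite-strand reads that fall on AP002478.1 cannot be told from its own. SYT13 had 49.7, 51.4 and 33.1 in Scramble and 329, 357 and 370 in shOGT, a log2 fold change of 2.97, and the other 3 had 2.75 to 3.06.

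**Figure D4:**
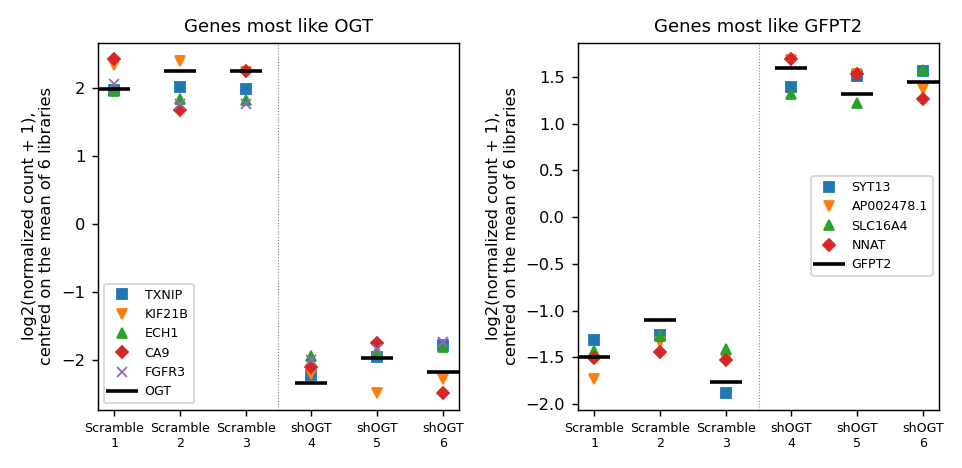
Log2(normalized count + 1), centred on each gene's mean over the 6 libraries (y axis), in each library (x axis) for OGT and its 5 most alike genes (left) and for GFPT2 and 4 of its 5 (right). Black bars are OGT and GFPT2 and symbols are the alike genes; the Scramble and shOGT values of every gene shown lie on opposite sides of 0.

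The nearest genes of the table on either side of OGT rose. AL590763.1, a processed pseudogene on the opposite strand whose end is 2858 bases before OGT, was at 0 in all Scramble libraries and at 7.37, 10.7 and 7.97 in shOGT, at least 3.14-fold higher against the floor of 3 reads per library. MAP2K4P1, a transcribed pseudogene 1948378 bases beyond OGT, had 3.55, 4.51 and 1.84 in Scramble and 90.5, 78.2 and 105 in shOGT. Around GFPT2 the distances were 439407 bases to AC008393.1, a long noncoding RNA gene (log2 fold change 1.22), and 901030 bases to TRIM52, a ring finger protein gene (1.98). Of 156 genes tested on chromosome X, 70 were called higher and 85 lower, and of 233 on chromosome 5, 153 and 80. Over all genes tested, 52.2% were called higher and 47.2% lower. Genes lying between the named neighbours and OGT or GFPT2 were not analysed here.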

How the data were processed

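RNA from 6 HT-29 libraries, 3 Scramble and 3 shOGT, was read from 1 table of genes, with each column matched to its sample label by number. The deposited signal values are counts that the authors normalized, for genes past their own test only. The authors also gave group means, log2 fold changes and p-values, raw and adjusted, from that test in the table, and these were not used as results. Every value was a whole number of reads divided by the size factor of its library (0.879 to 1.13), and 100% of values came out whole within 0.02. The submitters' processing notes name cutadapt 1.9, HISAT2 2.0.4, UMI-tools, StringTie 1.3.4d, DESeq2 and edgeR and a mouse build, mm8, but all 5681 gene positions matched GENCODE version 29 on GRCh38, which is human. The labels describe an oligo(dT) and dUTP library with molecular identifiers and the paper a strand-specific kit. Counting by strand is not given in the sources used here.

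Genes reaching a normalized count of 1 in 3 or more libraries were fitted with limma 3.58.1 (R 4.3.3, trend) on log2(normalized count + 1). Alternatives were median-of-ratios rescaling, a pseudocount of 0.1, no filter, a mean of at least 5, edgeR 4.0.16 and DESeq2 1.42.0 on recovered reads, and each library left out. The fits were tested on simulated counts in which most genes were level, unlike the table here, so that test does not speak for the calls above. The genes examined and all lists were chosen with earlier results of these data known. The genes named were OGT, GFPT2, all hexosamine genes analysed, up to 6 genes of each other list by size of change, the 5 most alike genes, and the nearest genes of the table. Hairpin sequences, and 2 genes that this rule would name, are not reported here.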

Additional observations from a re-analysis of the deposited data

How the results depend on the processing

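OGT stayed called lower and GFPT2 called higher under all alternatives run. The OGT log2 fold change lay between −4.42 and −3.61 and that of GFPT2 between 2.75 and 3.58, with the values nearest to and farthest from 0, respectively, after rescaling. Rescaling by the median of ratios left 4069 of 5671 genes called, 2980 higher and 1089 lower, against 5636 before it, 2959 higher and 2677 lower. It also took the called OGT interactors from 8 to 5 and the called regulators from 4 to 1. The other counts over all genes were 5257 to 5668, and 5403 to 5543 with 1 library left out. The count of 5257 is out of 5291 genes tested, those with a mean of at least 5. For 51 other named genes, 582 values kept their direction and side of the threshold, 16 fell below it and 12 passed it, and none reversed. Of the 16, 10 came from rescaling, which raises every shOGT value relative to Scramble, and 6 from leaving out a library (PPP1R12A, DHODH and MYC). Those 10 calls thus depend on the scale used. As no genes that stayed level entered the rescaling factors, which scale is right could not be decided. No paired analysis was possible because the labels number the libraries 1 to 6 and the groups share no number.

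Only genes past the authors' thresholds were analysed; genes that stayed level are outside these results, and the total depth of the libraries is unknown. The 28 reads of GFPT2 in Scramble limit the precision of its rise, and a group of 3 libraries gives no permutation p below 0.1.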
